A study of Rattus norvegicus with 10 samples.

Results

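The genes described here mostly encode nuclear subunits of respiratory complexes II, III, IV and V. Among them are also Atp5if1, an inhibitor of complex V, and Cox7a2l, known for joining complexes III and IV. All were chosen by name. Their symbols start with Uqcr, Atp5, or Cox followed by a digit from 4 to 8, or are Sdha, Sdhb, Sdhc, Sdhd or Cyc1. This gave 45 genes of the 13670 symbols in the table, 4 of complex II, 9 of complex III, 15 of complex IV and 17 of complex V. The 10 mRNA libraries came from left hippocampi of TgF344-AD females, a transgenic line driven by a mouse prion promoter and used to model Alzheimer's disease. All rats were transgenic, 11 months old and perfused with cold saline under ketamine and xylazine before the hippocampus was taken, so the untreated group is no healthy control, and rats without the transgenes are not analysed here. The 5 untreated rats ate ordinary chow. The 5 BT-11 rats ate chow with BT-11, an oral small molecule known as a ligand of LANCL2; treatment began at 5 months and lasted 6 months. Each library is labelled as 1 rat, and the libraries held between 13721673 and 19700443 estimated reads.

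Complex II, succinate dehydrogenase, feeds electrons from the citric acid cycle into ubiquinone. Complex III passes them from ubiquinol to cytochrome c, complex IV from cytochrome c to oxygen, and complex V, the ATP synthase, uses the proton gradient that complexes III and IV help to build. Complex II is encoded wholly in the nucleus, while the other 3 also hold subunits made from mitochondrial DNA, whose transcripts are not analysed here. Neurons of the hippocampus spend much of their ATP on ion pumping and synaptic transmission, and many of these genes are known targets of the transcription factors NRF1 and GABP.

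The transcripts were abundant, and the genes held a stable order of levels from rat to rat. Levels between genes are given per transcript length, as RPKM, which scales reads by transcript length and library size, and levels of 1 gene between libraries as CPM, which scales them by library size alone, both with TMM factors. Of the 45 genes, 41 had a median level over the 10 libraries between 35.6 and 665.3 RPKM. Within complex II the 4 medians ran from 76.7 to 116.6 RPKM, within complex III from 35.6 to 315.8 RPKM, among 11 genes of complex IV from 85.0 to 590.7 RPKM and within complex V from 56.9 to 665.3 RPKM. Atp5f1b, the catalytic beta subunit of ATP synthase, and Cox4i1, the ubiquitous form of a regulatory complex IV subunit, held the first 2 ranks in every library, in this order in 9 of them and the other way round in untreated library 3, at medians of 665.3 and 590.7 RPKM. Cox6a1 held rank 3 in all 10 libraries, at 436.8 to 585.6 RPKM. Uqcrb and Uqcrq, small subunits of complex III, were the lowest of the 41 at medians of 35.6 and 39.7 RPKM, and their per-length levels rest on deposited lengths of 1041 and 1494 bases, long for small subunits. The other 4 genes, Cox4i2, Cox6b2, Cox6a2 and Cox8b, are the tissue-restricted forms of complex IV subunits, with medians from 0.261 to 3.3 RPKM.

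**Figure D1:**
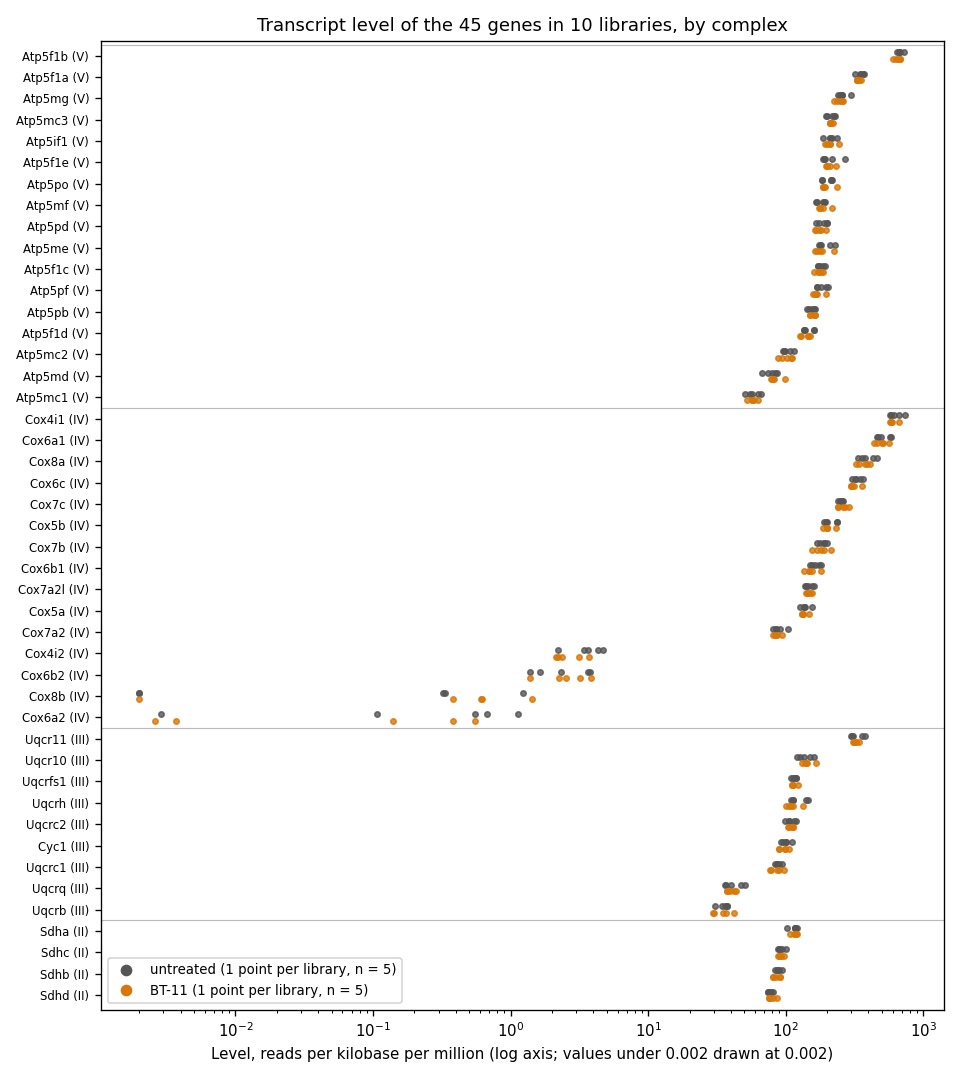
Level of each of the 45 genes in RPKM on a log axis, 1 point per library, untreated in grey and BT-11 in orange, grouped by complex and ordered by median. Points of both groups lie on each other in nearly every line, 41 genes have medians from 35.6 to 665.3 RPKM, and Cox4i2, Cox6b2, Cox8b and Cox6a2 lie far below, with values near 0 drawn at the left limit.

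The study set BT-11 against ordinary chow to ask what the compound does to hippocampal transcripts. None of the 43 genes that passed the filter on low counts differed by edgeR's quasi-likelihood test after Benjamini-Hochberg adjustment over all 12000 genes tested (0 of 43, background 0%), and their adjusted p-values ran from 0.809 to 0.998. At an unadjusted p under 0.05 there were also 0 of 43, against 5.96% of all genes tested, 2.53% higher and 3.42% lower. DESeq2 and limma voom called 0 of the 43 at either threshold. Values of both groups overlapped for 43 of 43 genes, while the groups did not overlap for 0.842% of all genes tested. Cox6a2 and Cox8b did not pass the filter.

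The size of a difference was limited closely for most of these genes. A total of 41 of the 43 had 95% intervals of the log2 fold change, BT-11 over untreated, that lay between -0.36 and 0.29, which is 0.781 to 1.22 times the untreated level. Cox4i2 and Cox6b2, both low, had the widest intervals, at -0.93 to 0.070 and -0.67 to 0.79. The median within-group coefficient of variation of the 43 genes was 7.97% in untreated rats and 7.35% with BT-11, against 11.8% and 10.2% over all genes tested. Complexes II, III, IV and V had median log2 fold changes of -0.003, -0.03, -0.059 and -0.027, and the median over all genes tested was -0.00016. With 1 library left out the medians ranged from -0.017 to 0.0087 for complex II, from -0.085 to -0.011 for complex III, from -0.10 to -0.021 for complex IV, and from -0.063 to -0.015 for complex V. The lowest of these came when BT-11 library 3 was dropped for complexes III and IV and untreated library 5 for complex V, and the highest when untreated library 1 was dropped for complexes III and V and untreated library 3 for complex IV. In a fit adjusted for the myelin level, whose markers were themselves lower with BT-11 for 10 of 10, they turned to 0.034, 0.082, 0.096 and 0.077.

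More of the estimates lay below 0 than above. With BT-11, 34 of 43 genes had a log2 fold change below 0, against 50% of all genes tested, and their median was -0.032. Each scaling tried gave from 34 to 36 of 43 below 0, and leaving out 1 library gave 27 to 37. In a fit adjusted for the myelin level the direction turned, with 33 of 43 above 0 and a median of 0.077. The myelin markers were lower with BT-11 for 10 of 10, so that fit cannot separate the myelin level from the group. In a fit adjusted for the ribosomal RNA share, 41 of 43 lay below 0. By complex, 2 of 4 genes of complex II, 7 of 9 of complex III, 11 of 13 of complex IV and 14 of 17 of complex V lay below 0. These directions are not independent of each other, because the genes moved together from library to library, as follows.

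**Figure D2:**
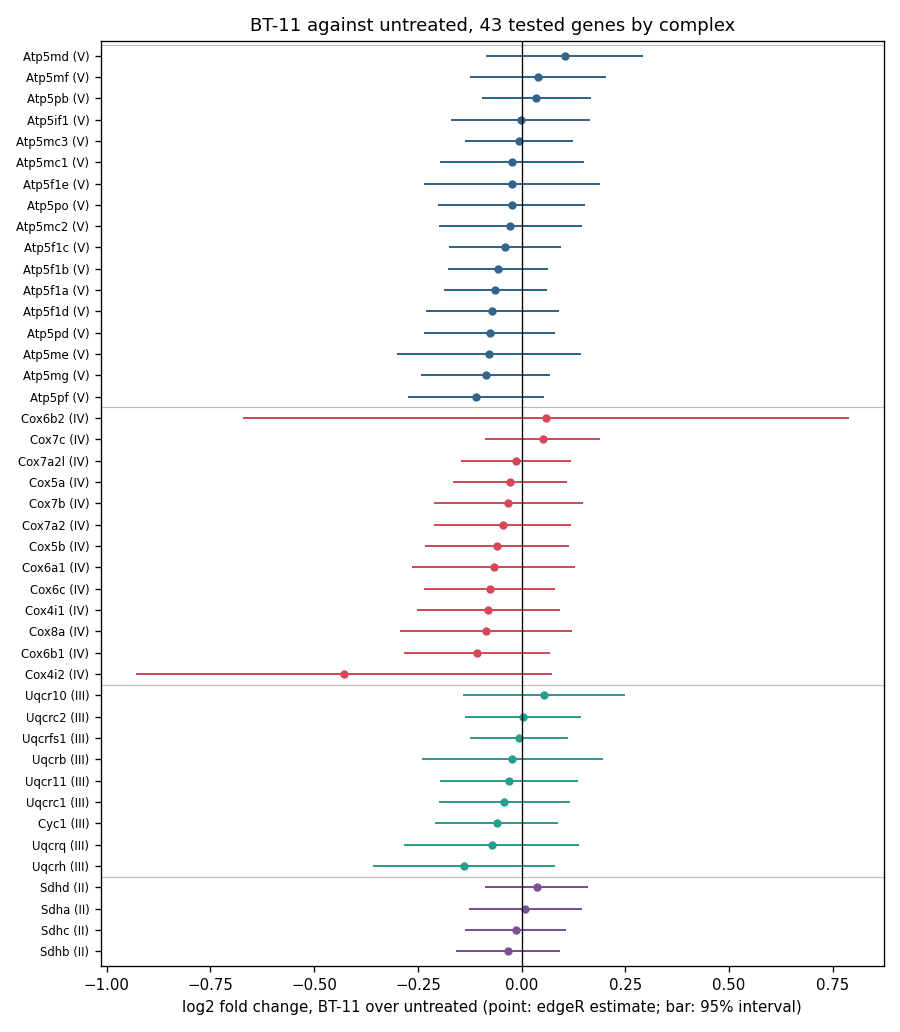
Log2 fold change of BT-11 over untreated for the 43 tested genes, by complex; points are edgeR estimates and bars 95% intervals. All intervals include 0, and those other than Cox4i2 and Cox6b2 stay between -0.36 and 0.29.

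Transcripts of the 43 genes were high together in 3 libraries, 2 of the untreated group and 1 of the BT-11 group. In untreated libraries 1 to 5, 39, 7, 31, 12 and 17 of the 43 genes lay above their own mean over 10 libraries, and in BT-11 libraries 1 to 5 the numbers were 7, 7, 42, 13 and 13. Untreated libraries 1 and 3 and BT-11 library 3 thus stood above the rest, and 38 of the 43 genes had their highest level in 1 of these 3. The mean deviation of the 43 genes from their 10-library means was 0.12, -0.054, 0.11, -0.068 and -0.022 on the log2(CPM + 1) scale in untreated libraries and -0.081, -0.078, 0.12, -0.024 and -0.032 in BT-11 libraries. Differences within each group were thus larger than the difference between the groups.

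**Figure D3:**
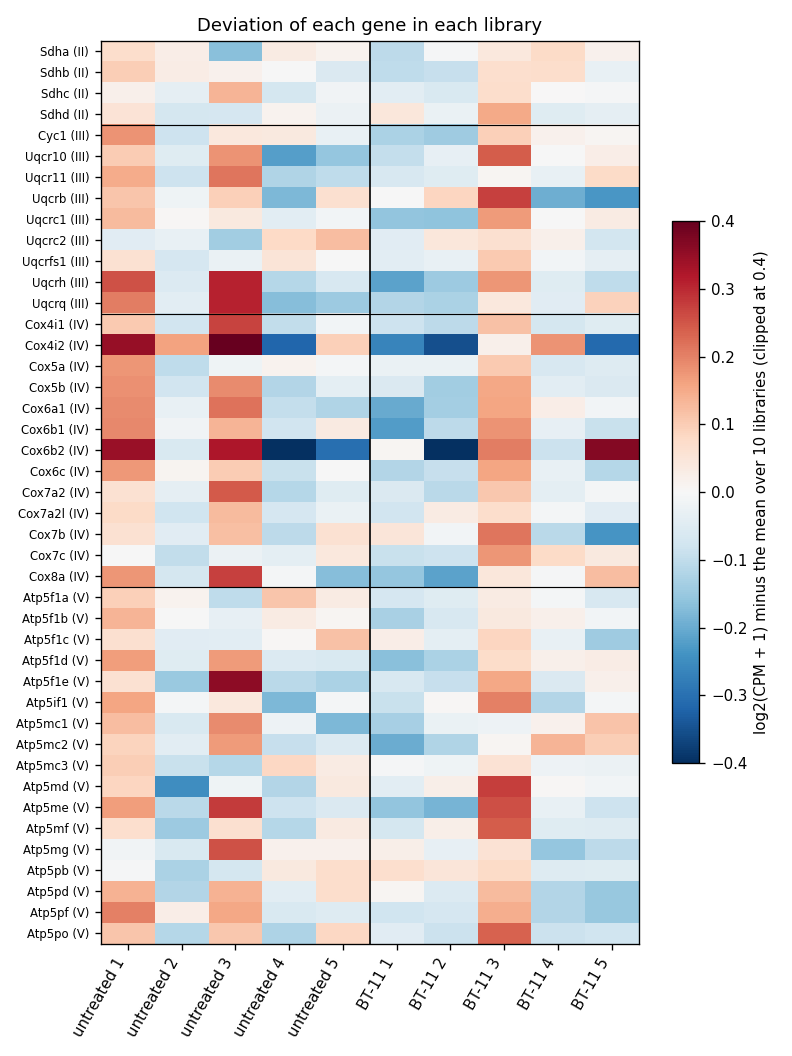
Deviation of each of the 43 tested genes (rows, by complex) in each library (columns) from its mean over 10 libraries, on the log2(CPM + 1) scale, red above and blue below, with colours clipped at 0.4. The columns of untreated 1, untreated 3 and BT-11 3 are mostly red, with 39, 31 and 42 of 43 genes above their mean.

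The same libraries were high in short transcripts in general. The 43 genes have short transcripts, with a median length of 601 bases against 2223 bases over all genes tested. Among the 229 other tested genes under 600 bases, the median deviation on the log2(CPM + 1) scale was 0.13, -0.031, 0.21, -0.12 and -0.037 in untreated libraries 1 to 5 and -0.098, -0.094, 0.12, -0.033 and -0.031 in BT-11 libraries 1 to 5. In the 2013 genes of 4000 bases and over the sign was turned in all 10 libraries, with -0.079, 0.038, -0.067, 0.031 and 0.020 in untreated and 0.052, 0.047, -0.042, 0.016 and 0.017 in BT-11 libraries. Short transcripts were thus higher, and long ones lower, in the 3 libraries in which the respiratory genes were high.

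Length also divided the respiratory genes themselves. The 29 genes under 1000 bases had median deviations of 0.14, -0.060, 0.17, -0.096 and -0.040 in untreated libraries and -0.082, -0.091, 0.16, -0.033 and -0.029 in BT-11 libraries. The 14 genes of 1000 bases and over had 0.073, -0.040, -0.029, 0.025 and 0.0023 and -0.057, -0.035, 0.073, -0.0075 and -0.036. Untreated library 3 therefore stood high for the short genes and slightly low for the long ones, whereas BT-11 library 3 was high for both. A set of 89 tested genes had symbols that start with Rpl or Rps and a digit. Most genes so named encode cytosolic ribosomal proteins, but the pattern can also take in other genes. Another set of 44 had symbols that start with Nduf and a, b, c, s or v. It holds complex I subunits but also Ndufa4 and, by its pattern, any tested assembly factor named Ndufaf. The first set had its highest median deviation, 0.34, in untreated library 3. The second had its highest, 0.1, in untreated library 1, with 0.1 also in BT-11 library 3. The part of transcript length in the library pattern of the respiratory genes was not tested. A fit with the level of short transcripts as a covariate estimates only the difference between the groups. In that fit, 33 of 43 genes lay below 0 and 0 passed.

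**Figure D4:**
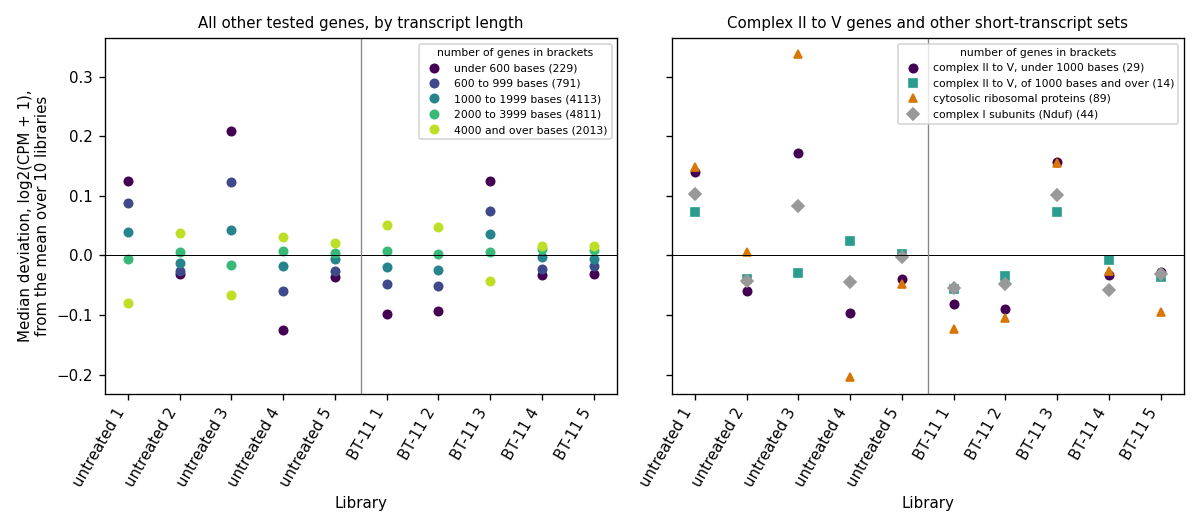
Median deviation from the 10-library mean on the log2(CPM + 1) scale in each library. The left panel shows all other tested genes in 5 classes of transcript length. The right panel shows short and long complex II to V genes and sets chosen by symbol. Genes starting with Rpl or Rps and a digit are labelled cytosolic ribosomal proteins, and those starting with Nduf and a, b, c, s or v complex I subunits. Genes under 600 bases are high in untreated 1, untreated 3 and BT-11 3 (0.13, 0.21 and 0.12), as are the 29 short complex II to V genes (0.14, 0.17 and 0.16).

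Other properties of the libraries stood beside these values without following the same order. The share of ribosomal RNA reads was 5.61% in BT-11 library 3 and between 9.12% and 11.0% in the other 9 libraries, untreated libraries 1 and 3 included (two-sided exact permutation test between the groups, p = 0.0714, n = 5 each). Untreated library 4 and BT-11 library 3 were rich in choroid plexus transcripts. The 7 listed markers, each above 0 in at least 1 of the 10 libraries, summed to 1213 and 1317 CPM there, against 2.96 to 93.7 CPM elsewhere. The first of these libraries was the lowest of the untreated group for the respiratory genes, while the second was the highest with BT-11. The log2 fold change of the 10 myelin markers was below 0 for 10 of 10, with a median of -0.47, an unadjusted p under 0.05 for 10 and an adjusted p under 0.05 for 0 (edgeR), while DESeq2 called 8 genes of the whole table. Their sum ranged from 8909 to 16689 CPM in untreated rats and from 6557 to 9673 CPM with BT-11, highest in untreated library 3. Markers of excitatory neurons, the defining cells of the hippocampus, were all detected, summed to between 8700 and 10141 CPM in untreated rats and between 9692 and 11201 CPM with BT-11, and had log2 fold changes above 0 for 8 of 8, of which 3 had an unadjusted p under 0.05. Interneuron markers were below 0 for 7 of 7, with a median of -0.21 and an unadjusted p under 0.05 for 2. Both tested red blood cell markers were above 0, at 2.81 and 2.95, each with an unadjusted p under 0.05. The 3 markers present summed to between 4.51 and 11.98 CPM in untreated rats and between 5.28 and 219.9 CPM with BT-11. The mean deviation of both tested markers was 0.97, 1.31, -0.47, 3.62 and -1.31 in BT-11 libraries 1 to 5, on the log2(CPM + 1) scale. In untreated libraries it lay between -1.43 and -0.41, a range that held BT-11 libraries 3 and 5, while BT-11 library 4 stood far above. Log2 fold changes were above 0 for 3 of 6 astrocyte, 2 of 6 microglia and 1 of 5 endothelium markers. Among these, 1 astrocyte marker had an unadjusted p under 0.05. Over all genes tested, 5.96% had an unadjusted p under 0.05, and none of the markers passed after adjustment. In whole tissue, fewer cells of a type and less RNA per cell cannot be told apart, and the part of cell makeup in the respiratory transcripts was not tested. Without untreated library 4 and BT-11 library 3, a setting chosen after seeing the data, 5 genes (Atp5pf, Cox4i2, Cox6b1, Cox6c and Uqcrh) had an unadjusted p under 0.05, which is 11.6% against 12% of all genes tested in that fit. The median log2 fold change of the 43 was then -0.094, and again 0 passed (smallest adjusted p = 0.364, edgeR).

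Promoters of these genes were searched for known motifs. RefSeq promoters of assembly GRCr8 were matched for 38 of the 45 genes (Atp5pd, Cox4i2, Cox6a1, Cox6c, Cyc1, Uqcr11 and Uqcrb were not matched), and the 250 bases before the gene start were searched on both strands. The palindromic NRF1 consensus, whose letters are the capitals in the first 3 sequences printed here, was present in 3 of 38, or 7.89%, against 1.07% of the promoters of 17545 protein-coding genes. The ETS motif CCGGAAGT, which GABP binds, was present in 5 of 38, or 13.2%, against 4.26%. The SP1 motif GGGGCGGGG was found in 5.26% against 12.8%, the YY1 consensus in 0 of 38 against 0.313%, the cyclic AMP response element TGACGTCA in 2.63% against 2.05% and TATAAA in 10.5% against 12.6%. No motif overlapped another in these promoters other than on its own opposite strand. All NRF1 and ETS matches began within 84 bases before the start. A match describes the letters only. The last 100 bases before the start are printed for the 8 genes with either motif, 5′ to 3′ on the gene's strand, with the NRF1 or ETS letters in capitals. Their GRCr8 positions are, in the order printed, chr7:135678219-135678318 (-), chr14:1464760-1464859 (+), chr11:44657484-44657583 (-), chr18:73567437-73567536 (+), chr9:46417737-46417836 (+), chr1:213833624-213833723 (-), chr5:134790883-134790982 (-) and chr10:38089979-38090078 (-).
Atp5mc2: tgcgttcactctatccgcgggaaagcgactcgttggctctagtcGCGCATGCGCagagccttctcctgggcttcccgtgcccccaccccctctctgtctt
Atp5me: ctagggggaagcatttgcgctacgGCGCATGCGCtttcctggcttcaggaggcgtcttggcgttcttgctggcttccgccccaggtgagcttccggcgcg
Atp5po: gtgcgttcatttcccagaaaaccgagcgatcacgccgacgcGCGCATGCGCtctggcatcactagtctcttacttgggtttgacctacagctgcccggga
Atp5f1a: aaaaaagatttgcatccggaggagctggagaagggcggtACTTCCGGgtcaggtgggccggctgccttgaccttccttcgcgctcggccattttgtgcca
Cox5b: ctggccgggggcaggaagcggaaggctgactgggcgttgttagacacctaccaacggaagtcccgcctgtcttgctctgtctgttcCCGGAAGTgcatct
Cox8a: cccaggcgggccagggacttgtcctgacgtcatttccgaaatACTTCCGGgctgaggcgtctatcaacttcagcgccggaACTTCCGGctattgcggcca
Uqcrh: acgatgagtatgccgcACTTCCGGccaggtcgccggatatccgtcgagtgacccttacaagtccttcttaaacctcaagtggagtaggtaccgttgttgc
Uqcrq: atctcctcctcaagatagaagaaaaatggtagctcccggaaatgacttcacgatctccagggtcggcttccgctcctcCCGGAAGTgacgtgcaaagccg
The first 3 hold the palindromic NRF1 motif, and the other 5 hold ETS motifs, with a pair of them in Cox8a. Of these 8 genes, 6 had their highest level in untreated library 3, Atp5po had it in BT-11 library 3 and Atp5f1a in untreated library 4. Of all 43 tested genes, these 8 included, 18 were highest in untreated library 3. The part of these motifs in the library pattern was not tested.

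The 4 genes of complex II lay close to their untreated levels, with log2 fold changes from -0.032 to 0.037. Sdha, the flavoprotein that oxidises succinate (chromosome 1, 31545631 to 31570602 in the deposited rn6 coordinates, as are all gene positions given below), measured 274.4, 266.4, 232.7, 267.7 and 264.2 CPM in untreated libraries 1 to 5 and 243.1, 260.6, 269.1, 275.6 and 264.8 CPM in BT-11 libraries 1 to 5. Untreated library 3 was the lowest of all, BT-11 library 1 was next, and the other 8 lay close together, with a log2 fold change of 0.0086 ± 0.0618 (SE). Sdhb, the iron-sulfur subunit that carries the electrons onward, measured 90.5, 86.1, 85.4, 84.2 and 81.0 CPM in untreated libraries 1 to 5 and 78.6, 79.1, 88.5, 88.8 and 82.8 CPM in BT-11 libraries 1 to 5. The groups overlapped almost fully, and the log2 fold change was -0.032 ± 0.0569 (SE). Sdhc, an anchor in the inner membrane that helps form the ubiquinone site, measured 107.2, 103.1, 116.2, 100.7 and 104.8 CPM in untreated libraries 1 to 5 and 102.8, 101.4, 111.1, 105.9 and 105.5 CPM in BT-11 libraries 1 to 5. Here untreated library 3, the lowest for Sdha, was the highest, and the log2 fold change was -0.014 ± 0.0552 (SE). Sdhd, the second membrane anchor, measured 98.9, 90.7, 90.8, 96.2 and 93.6 CPM in untreated libraries 1 to 5 and 98.2, 93.5, 105.9, 92.0 and 92.9 CPM in BT-11 libraries 1 to 5. BT-11 library 3 stood highest, and the log2 fold change was 0.037 ± 0.0562 (SE). Intervals of these 4 genes lay between -0.16 and 0.16 on the log2 scale.

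In complex III, the standard errors of the log2 fold change were 0.0535 and 0.0677 for the redox subunits Uqcrfs1 and Cyc1 and 0.101 and 0.0962 for the small subunits Uqcrh and Uqcrq. Uqcrfs1, the Rieske iron-sulfur protein (chromosome 17, 35677984 to 35682262), measured 130.0, 118.9, 122.5, 129.2 and 124.5 CPM in untreated libraries 1 to 5 and 121.2, 122.1, 134.2, 123.6 and 121.5 CPM in BT-11 libraries 1 to 5. All 10 values lay between 118.9 and 134.2 CPM, with a log2 fold change of -0.0059 ± 0.0535 (SE). Cyc1, cytochrome c1, which hands the electrons to cytochrome c, measured 133.3, 110.9, 121.0, 120.9 and 115.2 CPM in untreated libraries 1 to 5 and 107.5, 106.4, 125.8, 118.9 and 118.1 CPM in BT-11 libraries 1 to 5. Untreated library 1 was highest and BT-11 libraries 1 and 2 were lowest, with a log2 fold change of -0.060 ± 0.0677 (SE). Uqcrc1, a core protein of the matrix side, measured 148.5, 136.4, 139.7, 132.2 and 134.9 CPM in untreated libraries 1 to 5 and 121.9, 121.6, 153.4, 136.0 and 139.2 CPM in BT-11 libraries 1 to 5. BT-11 libraries held both the highest value and the 2 lowest, and the log2 fold change was -0.041 ± 0.0714 (SE).

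Uqcrh and Uqcrq had the smallest p-values of complex III beside Cyc1, and neither passed. Uqcrh, the hinge protein at the cytochrome c1 docking face, measured 77.4, 62.3, 80.2, 59.7 and 61.8 CPM in untreated libraries 1 to 5 and 55.6, 58.4, 73.2, 62.6 and 60.2 CPM in BT-11 libraries 1 to 5. Untreated libraries 1 and 3 and BT-11 library 3 were clearly above the other 7, and the log2 fold change of -0.14 ± 0.101 (SE) (unadjusted p = 0.191, adjusted p = 0.821, edgeR) was the lowest of the complex. Uqcrq, a small membrane subunit, measured 70.7, 59.4, 75.9, 54.3 and 55.2 CPM in untreated libraries 1 to 5 and 56.4, 56.0, 63.0, 59.3 and 65.3 CPM in BT-11 libraries 1 to 5. Its untreated values ran from 54.3 to 75.9 CPM and enclosed all BT-11 values, with a log2 fold change of -0.072 ± 0.0962 (SE). The remaining members Uqcrc2, Uqcrb, Uqcr10 and Uqcr11 had log2 fold changes of 0.0028, -0.022, 0.054 and -0.030. Uqcr11 has 2 transcript rows at 1 locus, and the row of 510 bases held 93.3% to 96.1% of its reads.

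Complex IV held the largest difference of the 43, in a gene of low level. Cox4i2, an alternative form of the Cox4 subunit known for induction by low oxygen and, in mouse brain, for expression in pericytes (chromosome 3, 148234546 to 148245419), measured 3.06, 2.57, 3.32, 1.56 and 2.41 CPM in untreated libraries 1 to 5 and 1.66, 1.5, 2.23, 2.61 and 1.57 CPM in BT-11 libraries 1 to 5. In BT-11 rats 4 of 5 values lay below the untreated mean, but the groups overlapped, since untreated library 4 was among the lowest and BT-11 library 4 exceeded 3 untreated values. Untreated rats averaged 2.58 ± 0.679 CPM and BT-11 rats 1.91 ± 0.485 CPM (SD, n = 5 each), and the log2 fold change was -0.43 ± 0.231 (SE) with an interval of -0.93 to 0.070 (unadjusted p = 0.0861, adjusted p = 0.809, edgeR). Of 10 pericyte markers, a list added after seeing the data, all were detected, with 7 log2 fold changes below 0 and 3 above. Of the 10, 1 had an unadjusted p under 0.05, against 5.96% of all genes tested. The markers summed to between 158.4 and 237.6 CPM in untreated rats and between 133.7 and 220.4 CPM with BT-11. Both Cox4i2 and the mean level of the pericyte list were highest in untreated library 3, which was also highest for the myelin, endothelium, microglia and astrocyte lists. In untreated library 1, Cox4i2 was next highest, while the pericyte list lay slightly below its 10-library mean, at -0.021 on the log2 scale. The part of pericytes in the Cox4i2 value was not tested. Adjusted for the myelin level, the Cox4i2 value turned to 0.055, and its unadjusted p was under 0.05 when untreated library 4 or BT-11 library 4 was left out, where 9.37% and 6.98% of all genes were also under it.

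The ubiquitous Cox4 form far outweighed it. Cox4i1 (chromosome 19, 54245958 to 54252199) measured 461.1, 406.7, 517.2, 400.4 and 425.1 CPM in untreated libraries 1 to 5 and 405.1, 399.0, 465.1, 408.1 and 414.1 CPM in BT-11 libraries 1 to 5. The 3 highest values were those of untreated libraries 1 and 3 and BT-11 library 3, and the log2 fold change was -0.080 ± 0.0781 (SE). Per length, Cox4i1 was 193.6 times as high as Cox4i2 on the mean of 10 libraries. Cox4i2 made up 0.568% ± 0.109 in untreated rats and 0.449% ± 0.108 with BT-11 (SD, n = 5 each) of the per-length level of the pair.

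Other subunits of complex IV repeated the library pattern of Cox4i1. Cox6a1, the ubiquitous form of a small membrane subunit, measured 315.1, 270.7, 321.5, 258.3 and 254.1 CPM in untreated libraries 1 to 5 and 239.8, 251.1, 308.4, 281.3 and 274.2 CPM in BT-11 libraries 1 to 5. Its values in untreated libraries 1 and 3 and BT-11 library 3 exceeded all others, with a log2 fold change of -0.067 ± 0.0894 (SE). Cox8a, another membrane subunit, measured 211.8, 178.3, 226.5, 186.2 and 166.2 CPM in untreated libraries 1 to 5 and 168.2, 161.1, 193.3, 186.6 and 204.0 CPM in BT-11 libraries 1 to 5. Untreated library 3 was highest, and BT-11 library 5 stood above BT-11 library 3, with a log2 fold change of -0.085 ± 0.0943 (SE). Cox6b1, which sits on the intermembrane side where the enzyme dimer forms, measured 80.1, 69.2, 76.9, 66.2 and 71.7 CPM in untreated libraries 1 to 5 and 59.7, 65.0, 79.3, 68.3 and 65.7 CPM in BT-11 libraries 1 to 5. BT-11 library 1 was lowest, BT-11 library 3 was level with the highest untreated values, and the log2 fold change was -0.11 ± 0.0797 (SE) (unadjusted p = 0.2, adjusted p = 0.823, edgeR). Cox6c, a further membrane subunit, measured 163.2, 145.7, 155.2, 135.7 and 144.3 CPM in untreated libraries 1 to 5 and 133.3, 135.7, 161.2, 141.6 and 133.6 CPM in BT-11 libraries 1 to 5. Again the same 3 libraries were the highest, with a log2 fold change of -0.077 ± 0.0716 (SE).

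Cox5a and the Cox7a genes followed with values nearer to 0. Cox5a, a matrix-side subunit, measured 93.0, 76.4, 81.3, 82.9 and 81.7 CPM in untreated libraries 1 to 5 and 80.7, 80.6, 88.3, 78.6 and 79.3 CPM in BT-11 libraries 1 to 5. Untreated library 1 and BT-11 library 3 stood above the other 8, and the log2 fold change was -0.028 ± 0.0621 (SE). Cox7a2, the ubiquitous form of Cox7a, measured 43.7, 40.8, 49.7, 38.5 and 40.5 CPM in untreated libraries 1 to 5 and 40.1, 38.8, 45.2, 40.7 and 41.6 CPM in BT-11 libraries 1 to 5. Untreated library 3 was the highest, with a log2 fold change of -0.046 ± 0.0754 (SE). Cox7a2l, known as a factor that joins complexes III and IV into supercomplexes, measured 192.5, 172.6, 199.4, 174.4 and 179.2 CPM in untreated libraries 1 to 5 and 173.1, 186.7, 191.6, 181.5 and 176.8 CPM in BT-11 libraries 1 to 5. The groups overlapped closely, and the log2 fold change was -0.013 ± 0.0604 (SE). The muscle form Cox7a1 is not analysed here. Of the remaining members, Cox5b, Cox7b and Cox7c had log2 fold changes of -0.059, -0.032 and 0.051.

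Of the forms of complex IV subunits known from heart, muscle and testis, Cox6a2 and Cox8b were close to undetected and Cox6b2 was low. Cox6a2, the heart and muscle form of Cox6a, had 10.0, 5.0, 0.019, 4.0 and 1.0 estimated reads in untreated libraries 1 to 5 and 1.0, 4.0, 0.019, 0.0284 and 3.0 in BT-11 libraries 1 to 5. Values below 1 are fractions of reads that the authors' counting assigned to it. Cox8b, the muscle form of Cox8 in rodents, had from 0 to 7 estimated reads per library. Both were at a level where no difference could be detected at this depth. Cox6b2, the testis form of Cox6b, passed the filter at 0.65 to 1.81 CPM, with a log2 fold change of 0.059 ± 0.336 (SE), and made up 1.49% ± 0.549 in untreated rats and 1.69% ± 0.583 with BT-11 (SD, n = 5 each) of the per-length level of Cox6b1 and Cox6b2.

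**Figure D5:**
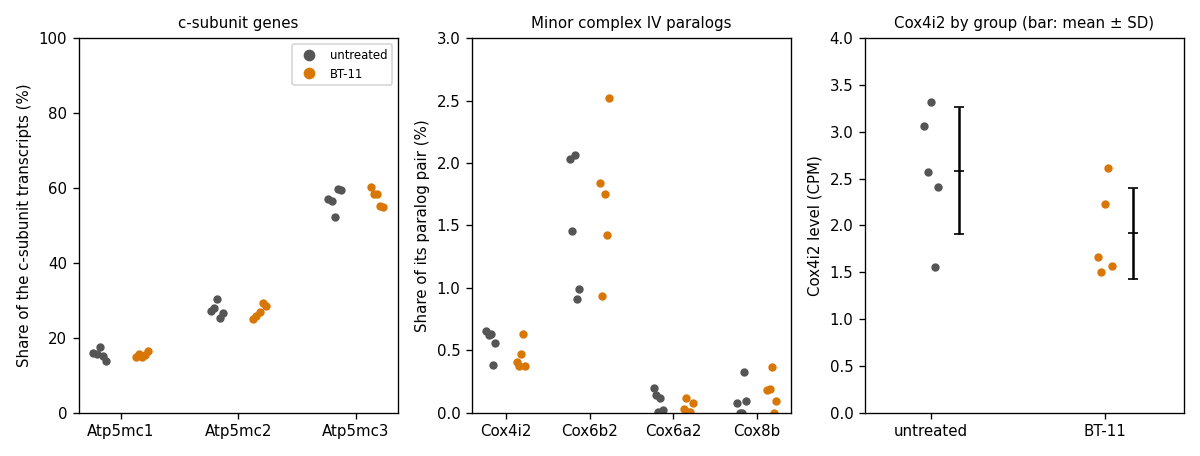
Left, share of each c-subunit gene in the per-length level of the 3 (percent); middle, share of the minor complex IV form in its pair (percent); right, Cox4i2 level in CPM with mean ± SD; 1 point per library, 5 untreated in grey and 5 BT-11 in orange. Atp5mc3 holds 52.2% to 60.1% in every library, the minor forms hold at most 2.52% of their pair, and Cox4i2 values of the groups overlap.

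In complex V, the transcripts of the catalytic head were the highest per length. Atp5f1b, the catalytic beta subunit (chromosome 7, 2504708 to 2511749), measured 1285, 1167, 1142, 1196 and 1174 CPM in untreated libraries 1 to 5 and 1067, 1118, 1201, 1186 and 1160 CPM in BT-11 libraries 1 to 5. Untreated library 1 was highest and BT-11 library 1 lowest, and the log2 fold change was -0.057 ± 0.0549 (SE). Atp5f1a, the alpha subunit that alternates with beta in the head (chromosome 18, 74156553 to 74164491), measured 677.5, 640.5, 591.0, 685.4 and 648.9 CPM in untreated libraries 1 to 5 and 605.0, 613.5, 648.5, 631.2 and 606.5 CPM in BT-11 libraries 1 to 5. BT-11 values lay below the untreated mean in 5 of 5 libraries, yet untreated library 3 was the lowest of all 10, so the groups overlapped, with a log2 fold change of -0.063 ± 0.0561 (SE) (unadjusted p = 0.281, adjusted p = 0.844, edgeR). The other head and shaft subunits Atp5f1c, Atp5f1d and Atp5f1e had log2 fold changes of -0.039, -0.071 and -0.024, and the short Atp5f1e reached 99.6 CPM in untreated library 3 against 69.9 to 86.6 CPM elsewhere.

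Proton flow turns a ring of c subunits that 3 genes encode, with the same mature protein behind different import sequences. Atp5mc3, the most abundant of them, measured 164.4, 144.3, 141.7, 162.7 and 157.1 CPM in untreated libraries 1 to 5 and 152.9, 151.7, 159.7, 151.4 and 151.0 CPM in BT-11 libraries 1 to 5. Its BT-11 values lay inside the untreated range, with a log2 fold change of -0.0067 ± 0.0588 (SE). Atp5mc2 measured 67.5, 61.6, 71.5, 59.4 and 61.0 CPM in untreated libraries 1 to 5 and 55.2, 58.3, 63.8, 69.8 and 68.0 CPM in BT-11 libraries 1 to 5. BT-11 libraries 1 and 2 were low. BT-11 libraries 4 and 5 stood above BT-11 library 3, unlike in most members, and the log2 fold change was -0.027 ± 0.0786 (SE). Atp5mc1, the lowest of the 3, measured 35.4, 31.1, 37.1, 31.9 and 28.5 CPM in untreated libraries 1 to 5 and 29.5, 31.8, 31.9, 32.8 and 35.2 CPM in BT-11 libraries 1 to 5. The highest value was again that of untreated library 3, with a log2 fold change of -0.023 ± 0.0793 (SE).

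The proportions of the c-subunit genes differed between the groups by less than their spread among rats. Atp5mc3 made up 57.1% ± 3.06 in untreated rats and 57.4% ± 2.2 with BT-11 (SD, n = 5 each) of their summed per-length level. The share of Atp5mc2 was 27.4% ± 1.9 in untreated rats and 27.1% ± 1.82 with BT-11 (SD, n = 5 each), and that of Atp5mc1 was 15.5% ± 1.31 in untreated rats and 15.5% ± 0.64 with BT-11 (SD, n = 5 each). Atp5mc3 has 2 transcript rows at 1 locus, of 717 and 727 bases, and the longer row held 7.77% of its reads in untreated library 3 against 16.3% to 26.0% in the other 9 libraries.

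The peripheral stalk and the membrane subunits held the smallest p-values of complex V. Atp5pf, coupling factor 6 of the stalk (chromosome 11, 24286809 to 24293864), measured 115.9, 102.4, 112.2, 96.4 and 97.1 CPM in untreated libraries 1 to 5 and 95.2, 96.1, 111.5, 92.7 and 90.4 CPM in BT-11 libraries 1 to 5. In BT-11 rats 4 values lay below the lowest untreated value and BT-11 library 3 stood among the highest, with a log2 fold change of -0.11 ± 0.0747 (SE) (unadjusted p = 0.168, adjusted p = 0.819, edgeR). Without BT-11 library 3 the unadjusted p of Atp5pf and that of Cox6b1 were under 0.05, which is 4.65% of the 43 genes against 8.4% of all genes tested in that fit. Atp5mg, subunit g at the dimer interface, measured 119.5, 115.8, 144.1, 122.2 and 122.1 CPM in untreated libraries 1 to 5 and 122.7, 118.0, 125.7, 108.3 and 112.3 CPM in BT-11 libraries 1 to 5. Untreated library 3 stood alone at the top, and the log2 fold change was -0.087 ± 0.0703 (SE). Atp5md, a small membrane subunit known as DAPIT, measured 26.5, 20.8, 24.6, 22.9 and 25.6 CPM in untreated libraries 1 to 5 and 24.1, 25.3, 30.3, 25.0 and 24.7 CPM in BT-11 libraries 1 to 5. All 5 BT-11 values exceeded the untreated mean, but untreated libraries 1 and 5 exceeded most of them, and the log2 fold change of 0.10 ± 0.0862 (SE) was the highest of the 43.

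Atp5if1, the inhibitor that binds the ATP synthase head when the proton gradient collapses, measured 113.5, 100.9, 104.7, 89.6 and 100.9 CPM in untreated libraries 1 to 5 and 95.5, 101.9, 117.0, 93.6 and 101.1 CPM in BT-11 libraries 1 to 5. BT-11 library 3 and untreated library 1 were the highest and the groups had near-equal means, with a log2 fold change of -0.0021 ± 0.0764 (SE). The remaining stalk and membrane members Atp5pb, Atp5pd, Atp5po, Atp5me and Atp5mf had log2 fold changes of 0.036, -0.077, -0.024, -0.079 and 0.039. Atp5pb is listed at 2 loci on chromosome 2 that held exactly 50% of its reads each in all 10 libraries, so the loci were not told apart and only the sum was used.

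Genes around the complexes gave no call either. None of the genes in the 7 lists below passed edgeR's test over all genes (smallest adjusted p = 0.809). Among assembly factors, 3 of 4 listed for complex II, 6 of 6 for complex III, 19 of 26 for complex IV and 7 of 7 for complex V were tested, with median log2 fold changes of -0.0015, -0.073, 0.0097 and 0.017, and 0 had an unadjusted p under 0.05. For complex II these were Sdhaf2 at 0.085 ± 0.0548 (SE), Sdhaf1 at -0.045 ± 0.0633 (SE) and Sdhaf3 at -0.0015 ± 0.258 (SE) on the log2 scale. For complex III, log2 fold changes were -0.24 ± 0.112 (SE) for Bcs1l, which inserts the Rieske subunit, 0.17 ± 0.0869 (SE) for Ttc19 and 0.15 ± 0.0922 (SE) for Lyrm7. For complex IV, Cox15, an enzyme of heme A synthesis, had 0.095 ± 0.0499 (SE), Higd1a 0.10 ± 0.0554 (SE) and Surf1 -0.13 ± 0.0815 (SE) as log2 fold changes. In the list for complex V, log2 fold changes were -0.068 ± 0.0789 (SE) for Oxa1l, the insertase of the inner membrane, and 0.052 ± 0.0778 (SE) for Atpaf1, a chaperone of the head. The value was -0.094 ± 0.0807 (SE) for Tmem186, which is known for the assembly of complex I and does not belong to complex V. The 7 genes counted for complex V and their median of 0.017 include Tmem186.

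Carriers, exchangers and regulators were measured as well. Cycs, cytochrome c, had a log2 fold change of 0.083 ± 0.0818 (SE), and Ndufa4, now counted as a complex IV subunit, of 0.056 ± 0.0653 (SE). Of the genes for exchange of ATP and phosphate, 8 of 11 were tested and 0 had an unadjusted p under 0.05. The outer membrane channel Vdac1 had 0.12 ± 0.0646 (SE), the creatine kinase Ckmt1 -0.077 ± 0.0648 (SE) and the ADP/ATP carrier Slc25a5 0.064 ± 0.0598 (SE) as log2 fold changes. Of 12 transcription regulators tested, 1 had an unadjusted p under 0.05, against 5.96% of all genes tested. It was Gabpb1, a subunit of GABP, at 0.25 ± 0.0915 (SE) on the log2 scale (unadjusted p = 0.0175, adjusted p = 0.809, edgeR). Ppargc1b, a coactivator of mitochondrial genes, had -0.26 ± 0.125 (SE), and Nrf1 had -0.13 ± 0.108 (SE). The 12 regulators had a median log2 fold change of 0.013.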

How the data were processed

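Left hippocampal mRNA of 5 untreated and 5 BT-11 rats was sequenced strand-specifically with paired reads, per the labels' protocols. The build rn6 and the tools STAR 2.7.9a, bcl2fastq 2.19.1.403, DESeq2 and Partek are named per the submitters' processing notes, without their settings. The authors deposited estimated counts per transcript, of which 85.4% were whole within 1e-06, with transcript lengths, and a second table of normalized values (unit here: signal), which are the deposited counts times 1 factor per library. Whether start positions count from 0 or 1 could not be settled. The design text once calls the rats male, while every label says female.

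The 14806 rows were summed to 13670 symbols and rounded. After filterByExpr, 12000 genes were tested with edgeR 4.0.16 (R 4.3.3), using TMM scaling, the quasi-likelihood test, the 10 libraries, no covariates and Benjamini-Hochberg adjustment. RPKM used the deposited length, and deviations used log2(CPM + 1). Libraries held 13721673 to 19700443 reads. Alternatives were DESeq2 1.42.0, limma 3.58.1, other scalings, no filter, covariates, a replicate block and libraries left out. The code was tested on simulated data. Genes and lists were chosen with earlier results of these data known. Named were the catalytic or defining subunits and paralogs, and, in each complex and each list of other genes, the 3 genes with the smallest p. P-values measure the spread between these rats only.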

Additional observations from a re-analysis of the deposited data

Results flagged for a closer look

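In 10 of the 86 groups of 5 libraries examined, 1 library lay far from the other 4, where chance flags about 1 in 20 groups. The genes move together, so the flags are not independent. BT-11 library 3 gave 8 of them, each time as the highest of its group. Its level was 159.7 CPM for Atp5mc3 (next highest 152.9), 30.3 for Atp5md (25.3), 93.8 for Atp5mf (80.4) and 111.5 for Atp5pf (96.1). It was 166.4 CPM for Atp5po (136.8), 465.1 for Cox4i1 (414.1), 88.3 for Cox5a (80.7) and 134.2 for Uqcrfs1 (123.6). Untreated library 3 gave the other 2, as the highest of its group for Atp5mg at 144.1 CPM (next highest 122.2) and the lowest for Sdha at 232.7 CPM (next lowest 264.2). BT-11 library 3 also had the lowest share of ribosomal RNA reads, 5.61%, and the highest choroid plexus sum, 1317 CPM. Their part in these values was not tested.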

How the results depend on the processing

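In 24 other settings, 0 of the 43 genes passed an adjusted p of 0.05, and over all genes the count was 0 in all but DESeq2, which called 8. At an unadjusted p under 0.05 the count of 0 became 1 when adjusted for the myelin level (Uqcr10), 0 to 2 with 1 library left out, and, in runs added once the data had been seen, 2 when adjusted for the ribosomal RNA share and 5 without untreated library 4 and BT-11 library 3. Over all genes the shares in these fits were 4.62% with myelin, 3.1% to 9.37% with 1 library left out, 10.4% with ribosomal RNA and 12% without both libraries, against 2.33%, 0% to 4.65%, 4.65% and 11.6% of the 43. The median log2 fold change of the 43 genes ranged from -0.07 to -0.015 with 1 library left out, was -0.034 with the replicate number as a block, where 0 of the 43 genes passed at either threshold, and turned to 0.077 when adjusted for the myelin level. The myelin markers were lower with BT-11 for 10 of 10, so the turned signs of that fit cannot be separated from the group. The cause of the turn was not tested. In a check of pairing by replicate number, 1 of 5 same-numbered pairs had a correlation of deviations over 0.1. Of the untreated libraries, 0 of 5 correlated best with its own number. With 5 libraries per group such a check cannot exclude pairing, and the rats were taken as unpaired in the main test. Adjusted for the myelin level, 30 of the 43 log2 fold changes turned in sign, Cox4i2, the farthest from 0, included. Turned values follow for the 27 tested genes described one by one. The log2 fold change was 0.00015 for Atp5if1 with no filter on low counts. It was 0.081 for Atp5if1, 0.077 for Atp5mc1, 0.15 for Atp5mc2, 0.00056 for Atp5mg, 0.096 for Cox4i1, 0.055 for Cox4i2, 0.13 for Cox6a1, 0.041 for Cox6b1, 0.033 for Cox6c, 0.13 for Cox7a2, 0.057 for Cox7a2l, 0.11 for Cox8a, 0.017 for Cyc1, -0.022 for Sdha, 0.034 for Sdhb, 0.096 for Sdhc, 0.090 for Uqcrc1, 0.0074 for Uqcrfs1, 0.082 for Uqcrh and 0.13 for Uqcrq adjusted for the myelin level. It was 0.0060 for Atp5if1, 0.010 for Atp5mc3 and 0.016 for Uqcrfs1 adjusted for the choroid plexus level. It was 0.0083 for Atp5if1 adjusted for the short-transcript level. It was 0.0013 for Atp5mc3 without untreated library 4 and BT-11 library 3. It was -0.0051 for Sdha with upper-quartile scaling. It was -0.016 for Sdha and -0.0076 for Sdhd adjusted for the ribosomal RNA share. With 1 library left out the range was -0.053 to 0.037 for Atp5if1, -0.074 to 0.021 for Atp5mc1, -0.070 to 0.013 for Atp5mc2, -0.038 to 0.015 for Atp5mc3, -0.056 to 0.014 for Cox5a, -0.083 to 0.011 for Cox7a2, -0.035 to 0.015 for Cox7a2l, -0.033 to 0.032 for Sdha, -0.037 to 0.016 for Sdhc and -0.030 to 0.0059 for Uqcrfs1. None of the 43 was called in these settings. Depth limits Cox6a2 and Cox8b, whose counts allow no comparison, and Cox6b2 and Cox4i2, whose intervals are wide.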
